A study of Mus musculus with 12 samples.

Results

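The respiratory chain was followed through 95 genes, those of 32532 gene names in the deposited tables whose names place them in complexes I to V of oxidative phosphorylation, with pseudogenes left out. Of these, 82 lie in the nuclear genome and 13 in the mitochondrial genome. By name, 37 nuclear and 7 mitochondrial genes belonged to complex I, 4 nuclear genes to complex II, 8 nuclear and 1 mitochondrial to complex III, 17 and 3 to complex IV, and 16 and 2 to complex V. The rule is a rule of names and used no measured value. Ndufa4 and Ndufa4l2 were kept in complex I by their names, although the NDUFA4 protein is now regarded as a subunit of complex IV.

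RNA was sequenced from primary vascular smooth muscle cells of the mouse aorta in 4 groups of 3 libraries, namely NR4A3 knockout (KO) and wild type (WT) cells at day 14 and KO and WT cells at day 1. The medium was DMEM/F12 with fetal bovine serum, penicillin-streptomycin and 10 mM β-GP (beta-glycerophosphate, a phosphate donor used to make such cultures calcify), which the protocols give for every group. The treatment label is β-GP for KO and none for WT, so KO against WT may also hold a difference in medium. The labels give no strain, age, allele or clone, and do not say whether replicates came from different mice or dishes. The p-values therefore rest on library-to-library spread that may be only technical.

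The 4 enzymes of the electron transport chain pass electrons from NADH and succinate to oxygen, and complexes I, III and IV pump protons that drive the ATP synthase, complex V. Complex II is made by nuclear genes alone, while the others join subunits from both genomes. The mitochondrial genome is read as long transcripts that are then cut into separate messenger and ribosomal RNAs, whereas each nuclear subunit has a promoter of its own. Vascular smooth muscle cells use both glycolysis and oxidative phosphorylation, and NR4A3 is a nuclear receptor of the NR4A family.

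Facts of the whole series that touch these genes are the following. Library totals ran from 14369933 to 18797157 counts in KO and from 13848199 to 19519654 in WT at day 14, and from 17143281 to 20091307 in KO and from 24929624 to 30105118 in WT at day 1. Nr4a3 stood at 34.3, 60.01 and 54.5 CPM (the standard unit of read counts scaled to library size) in KO and 238, 256 and 217 CPM in WT at day 14, and between 1.89 and 2.34 CPM in KO and between 3.84 and 4.61 CPM in WT at day 1. Its reads were thus lower in KO at both days but present in every KO library. The smooth muscle label was met in part, since Acta2 had 254 CPM or more in every library while Tagln, Myh11 and Myocd stayed under 1 CPM in all 12. The KO libraries of day 1 and the WT libraries of day 14 were close to each other, with 9.78% of 15976 genes differing between them against 50.7% for the KO libraries of day 14 set against the WT libraries of day 1. Whether groups were exchanged between the tables was not tested, and an exchange would change what every KO over WT value means. The labels were followed. Nr4a3 differed between these close groups (−6.82 in KO at day 1 over WT at day 14, adjusted p = 4.81e-11). WT replicate 1 of day 14 stood apart from its group (chi-square per gene 36.1 or more against the other 2 replicates). In bulk RNA, fewer cells of a type and less RNA per cell cannot be told apart.

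In KO against WT, the calls leaned upward among the mitochondrial members at day 14 and among the nuclear members at day 1. At day 14 the mitochondrial messenger RNAs rose in KO, with 10 of 12 tested called higher and none lower, while of 78 tested nuclear members 10 were higher and 17 lower. At day 1 it was the nuclear members that rose, with 39 of 79 called higher and 13 lower, and of the 13 mitochondrial messenger RNAs 1 was higher and 5 lower. Over all genes tested, 22.7% were called higher and 23.7% lower at day 14, and 30.6% higher and 30.2% lower at day 1 (edgeR, adjusted p below 0.05). The mitochondrial share called higher at day 14 and the nuclear share called higher at day 1 thus lay above the background. The nuclear share called higher at day 14 lay below it, and the nuclear share called lower at day 14 lay near it. The median log2 fold change, KO over WT, was 0.87 for the mitochondrial and −0.12 for the nuclear members at day 14, against −0.00 for all genes. At day 1 the medians were 0.01 and 0.21, against 0.01 for all genes. The mitochondrial median of day 1 was 0.13 without KO replicate 2 and −0.12 without KO replicate 3. The nuclear median at day 14 was −0.03 without WT replicate 1 and −0.18 under scaling by library size alone. The nuclear counts of day 14 rested on single libraries, with 4 higher without any 1 of the KO replicates, 5 higher without WT replicate 2 or 3, 15 higher without WT replicate 1, and 10 lower without KO replicate 1 or 3. The count of 0 mitochondrial genes lower at day 14 was also 0 at an unadjusted p below 0.05 in edgeR, and 0 in DESeq2 and limma-voom. The single mitochondrial rise at day 1 became 3 without KO replicate 2.

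**Figure D1:**
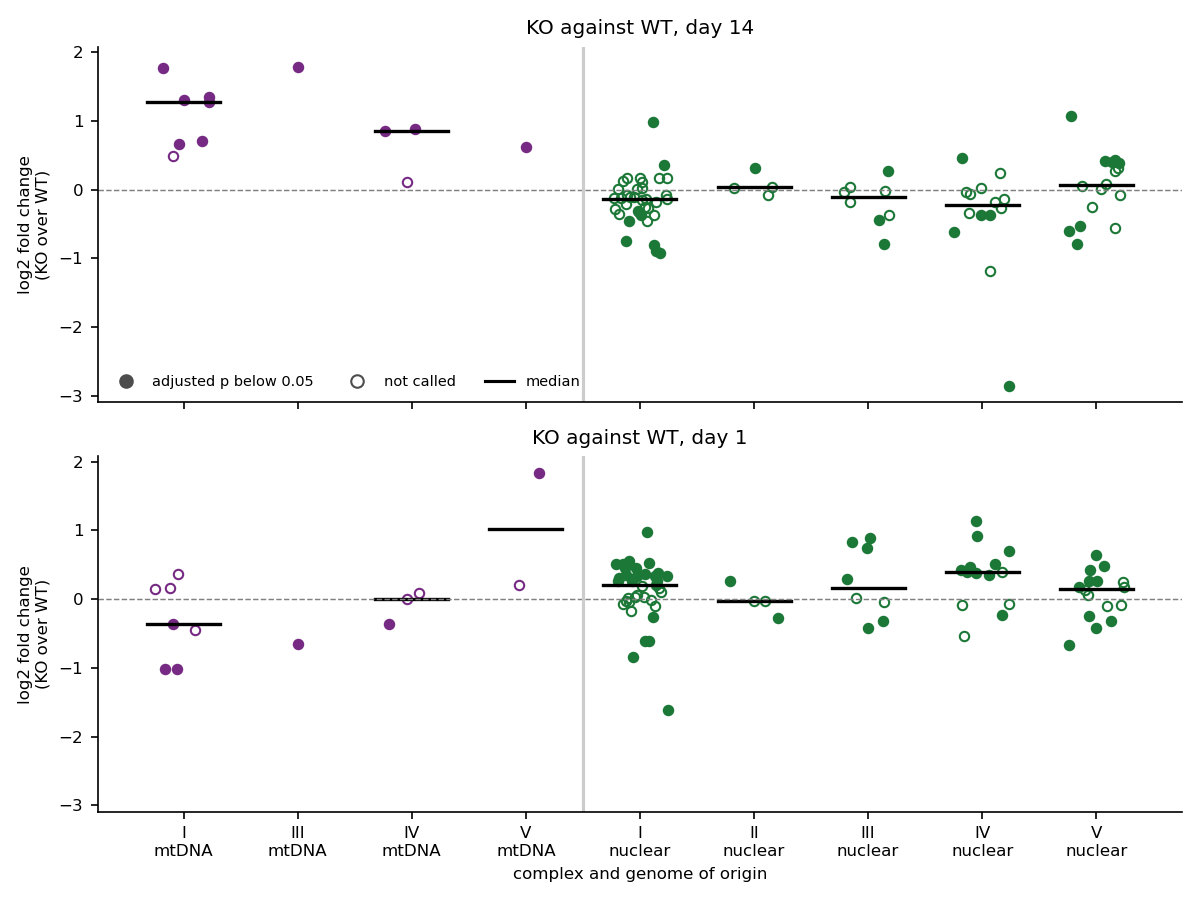
KO over WT log2 fold change (vertical axis) of each tested member at day 14 (upper panel) and day 1 (lower panel), by complex and genome of origin (horizontal axis). Each point is 1 gene, filled where the adjusted p was below 0.05, and bars are medians. At day 14 all 12 mitochondrial points lie above 0, whereas at day 1 the nuclear medians of complexes I, III, IV and V lie above 0.

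Summed counts give the levels behind these calls. The 13 mitochondrial messenger RNAs took 4.55% ± 0.19 of all counts in KO and 3.19% ± 0.10 in WT at day 14 (SD, n = 3), and 4.08% ± 0.52 in KO and 4.33% ± 0.13 in WT at day 1. The largest part of this sum was mt-Co1. Without it the remaining 12 took 2.32% ± 0.04 in KO and 1.01% ± 0.17 in WT at day 14, and 1.55% ± 0.10 in KO and 2.01% ± 0.03 in WT at day 1. The KO libraries lay above all WT libraries at day 14 and below all WT libraries at day 1. The 82 nuclear members took 0.690% ± 0.011 in KO and 0.770% ± 0.063 in WT at day 14, and 0.861% ± 0.005 in KO and 0.694% ± 0.015 in WT at day 1. The ratio of the shares, KO over WT, was 1.43 for the mitochondrial and 0.896 for the nuclear members at day 14, and 0.943 and 1.24 at day 1. For all 13 mitochondrial messengers at day 1 the KO and WT libraries overlapped. On TMM effective library sizes, the scale of the CPM values, the nuclear ratio at day 14 was 0.946 and the KO and WT libraries overlapped.

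**Figure D2:**
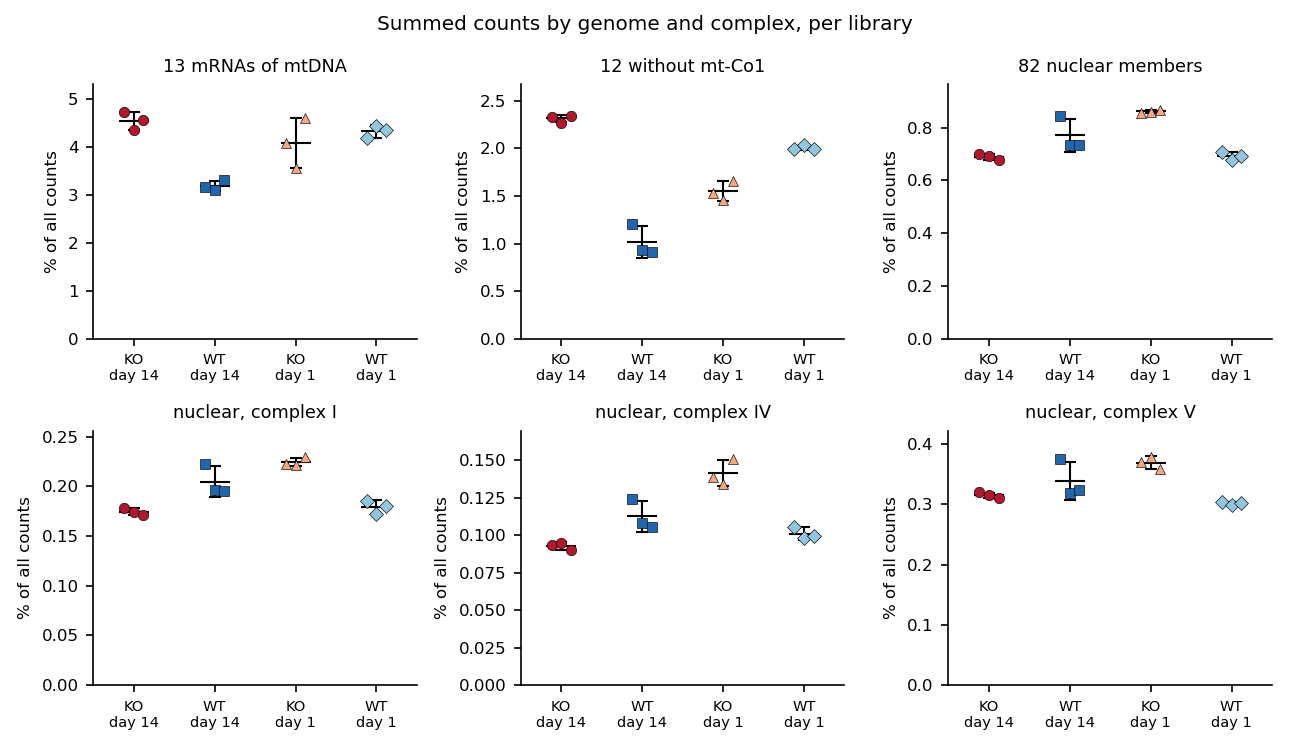
Summed counts of member classes as a percentage of all counts (vertical axes, from 0) in each library of the 4 groups (horizontal axes); points are libraries, and bars are the mean and SD of 3. The 12 mitochondrial messenger RNAs other than mt-Co1 average 2.32% in KO and 1.01% in WT at day 14, and nuclear complex IV averages 0.141% in KO and 0.101% in WT at day 1.

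Of the mitochondrial messengers, mt-Cytb, mt-Nd1, mt-Nd2, mt-Nd4 and mt-Co2 were called higher in KO at day 14 and lower at day 1. The cytochrome b gene mt-Cytb, the only mitochondrial gene of complex III, had 9011, 8468 and 8427 CPM in KO and 3396, 2028 and 2042 CPM in WT at day 14. At day 1 it had 4607, 4488 and 5086 CPM in KO and 7337, 7700 and 7419 CPM in WT. The groups did not overlap at either day, with KO high at day 14 and low at day 1. Its log2 fold change was 1.78 ± 0.19 at day 14 (SE, adjusted p = 0.000108) and −0.65 ± 0.06 at day 1 (adjusted p = 6.49e-07). The change of the KO effect from day 1 to day 14, tested as an interaction over all 12 libraries, was 2.46 ± 0.21 (adjusted p = 1.02e-07).

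Subunits of the membrane arm of complex I, which pumps protons, are the products of the mitochondrial Nd genes. mt-Nd1 had 3886, 3680 and 3786 CPM in KO and 1890, 1341 and 1320 CPM in WT at day 14, and 1977, 2013 and 2121 CPM in KO and 4063, 4213 and 4145 CPM in WT at day 1. mt-Nd4 had 2371, 2311 and 2460 CPM in KO and 1088, 858 and 834 CPM in WT at day 14, and 1324, 1314 and 1385 CPM in KO and 2699, 2755 and 2734 CPM in WT at day 1. For both genes, KO at day 14 and WT at day 1 were the high groups, and no KO library overlapped a WT library of its day. The log2 fold changes of mt-Nd1 were 1.31 ± 0.14 at day 14 and −1.01 ± 0.05 at day 1 (adjusted p = 0.000105 and 3.2e-09), and those of mt-Nd4 were 1.35 ± 0.11 and −1.02 ± 0.05 (adjusted p = 2.82e-05 and 2.51e-09). mt-Nd2 had 2907, 2742 and 2943 CPM in KO and 1453, 1047 and 1010 CPM in WT at day 14, and 1710, 1627 and 1684 CPM in KO and 2124, 2255 and 2141 CPM in WT at day 1. It followed the same order, with 1.28 ± 0.14 at day 14 and −0.37 ± 0.05 at day 1 (adjusted p = 0.000115 and 4.31e-05).

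mt-Nd5 and mt-Nd6 rose less at day 14 and were not called at day 1. mt-Nd5 had 5092, 4996 and 5231 CPM in KO and 3238, 3215 and 3103 CPM in WT at day 14, and 4458, 3800 and 5107 CPM in KO and 3921, 4119 and 4052 CPM in WT at day 1. KO was above WT without overlap at day 14, and the day 1 groups overlapped. Its log2 fold change was 0.67 ± 0.08 at day 14 (adjusted p = 0.000178) and 0.15 ± 0.08 at day 1 (adjusted p = 0.135). mt-Nd6, the only messenger read from the other strand of the mitochondrial DNA, had 648, 728 and 759 CPM in KO and 483, 427 and 383 CPM in WT at day 14. At day 1 it had 603, 525 and 748 CPM in KO and 588, 562 and 544 CPM in WT. It lay close to mt-Nd5, with 0.71 ± 0.11 at day 14 (adjusted p = 0.000704) and 0.16 ± 0.10 at day 1 (adjusted p = 0.186). mt-Nd3 rose at day 14 (1.77 ± 0.43, adjusted p = 0.00914) on few reads, 26, 16 and 34 counts in KO and 13, 6 and 5 in WT, and the adjusted p was 0.0553 without KO replicate 3. mt-Nd4l, at 0.346 to 0.916 CPM at day 14, was not called at either day (adjusted p = 0.394 and 0.524).

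The catalytic core of complex IV is made of mt-Co1, mt-Co2 and mt-Co3. mt-Co1 was the most abundant member in every library, with 24637, 21050 and 22591 CPM in KO and 18767, 21004 and 23128 CPM in WT at day 14, and 24429, 20091 and 28730 CPM in KO and 22844, 25561 and 24996 CPM in WT at day 1. The groups overlapped at both days, and neither difference was called, at 0.11 ± 0.11 (adjusted p = 0.455) and 0.01 ± 0.10 (adjusted p = 0.967). mt-Co2 had 83.4, 63.9 and 69.7 CPM in KO and 51.4, 32.4 and 33.0 CPM in WT at day 14, where it rose by 0.88 ± 0.19 (adjusted p = 0.00454). At day 1 it had 55.7, 52.4 and 77.5 CPM in KO and 96.1, 66.9 and 76.9 CPM in WT, overlapping groups with a difference of −0.36 ± 0.14 (adjusted p = 0.0467). That call at day 1 was lost under several alternatives, with an adjusted p of 0.207 in DESeq2 and 0.235 without WT replicate 1. mt-Co3 had 21.5, 18.1 and 24.0 CPM in KO and 13.1, 10.5 and 11.3 CPM in WT at day 14 (0.85 ± 0.15, adjusted p = 0.002), and did not pass at day 1 (0.09 ± 0.10, adjusted p = 0.469).

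Complex V takes mt-Atp6, its proton channel subunit, and mt-Atp8 from the mitochondrial genome. mt-Atp6 had 17.3, 16.7 and 17.5 CPM in KO and 11.7, 9.90 and 11.5 CPM in WT at day 14, without overlap (0.62 ± 0.13, adjusted p = 0.00471). Its groups overlapped at day 1 (0.21 ± 0.14, adjusted p = 0.201). mt-Atp8 rested on few reads, 12, 4 and 3 counts in KO and 18, 6 and 5 in WT at day 14, where it was not tested. At day 1 it had 31, 19 and 32 counts in KO and 9, 9 and 13 in WT, the only mitochondrial rise of that day (1.84 ± 0.39, adjusted p = 0.00119).

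**Figure D3:**
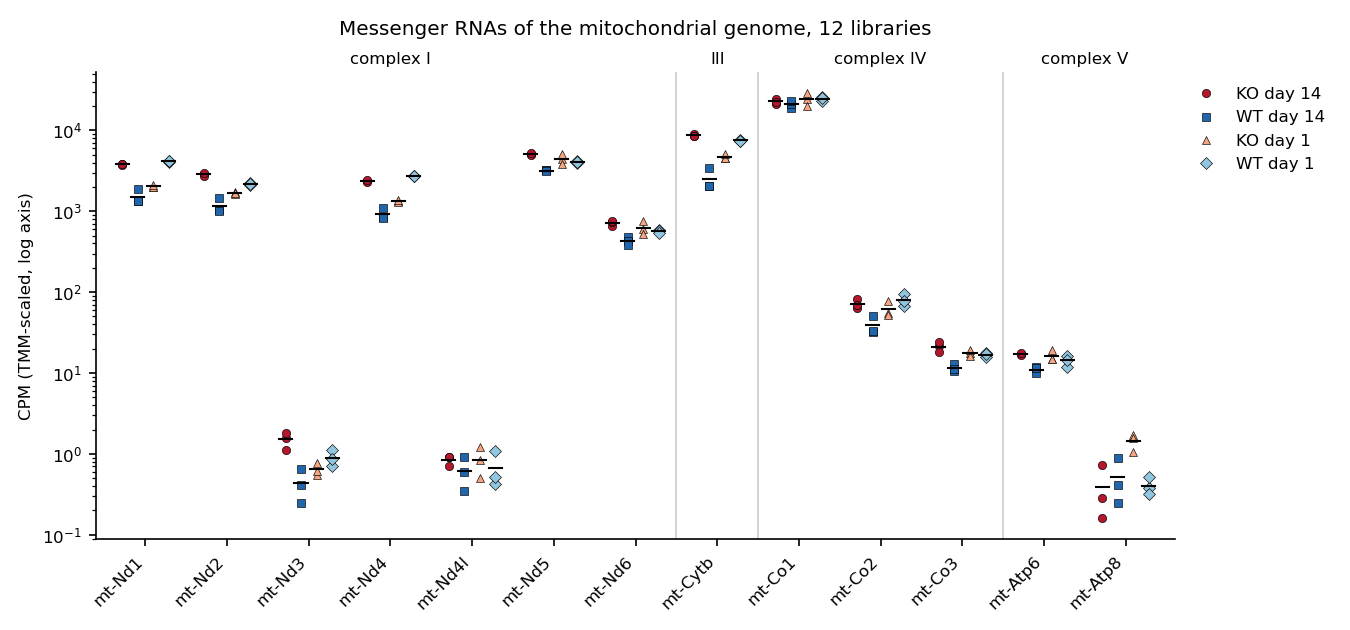
CPM (vertical log axis) of the 13 messenger RNAs of the mitochondrial genome (horizontal axis, by complex) in the 12 libraries; points are libraries and bars are the means of the 4 groups. mt-Cytb, mt-Nd1, mt-Nd2 and mt-Nd4 are high in the day 14 KO and day 1 WT libraries and low in the other groups, while mt-Co1 overlaps between all 4 groups.

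Ratios between messengers within a library do not depend on how libraries are scaled. Reads of mt-Cytb per read of mt-Co1 were 0.380 ± 0.019 in KO and 0.122 ± 0.051 in WT at day 14 (SD, n = 3), and 0.196 ± 0.024 in KO and 0.306 ± 0.013 in WT at day 1. The ratio of mt-Nd1 to mt-Co1 was 0.167 ± 0.009 in KO and 0.0739 ± 0.023 in WT at day 14, and 0.0850 ± 0.014 in KO and 0.169 ± 0.007 in WT at day 1. In both ratios KO and WT libraries of a day did not overlap. These ratios show unequal change among the messengers, not which of them stayed level. Of the reads of the 13 genes, mt-Co1 took 49.1% in KO and 68.1% in WT at day 14, and 61.8% in KO and 53.5% in WT at day 1. The 2 mitochondrial ribosomal RNAs, which are no members, went the other way from the messengers at day 14. Together they took only 0.0553% to 0.198% of all counts in a library. Whether their level followed library preparation was not tested. mt-Rnr1, the small ribosomal RNA, had 216, 197 and 231 CPM in KO and 667, 635 and 492 CPM in WT at day 14 (−1.49, adjusted p = 3.02e-05). At day 1 it had 291, 238 and 289 CPM in KO and 334, 290.0 and 329 CPM in WT, a small fall in overlapping groups (−0.21, adjusted p = 0.038). mt-Rnr2, the large one, had 418, 371 and 372 CPM in KO and 1241, 787 and 541 CPM in WT at day 14, and 666, 604 and 645 CPM in KO and 331, 299 and 328 CPM in WT at day 1 (−1.16, adjusted p = 0.00488, and 1.01, adjusted p = 1.67e-08). At day 1 the ribosomal RNAs thus went opposite ways.

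Apart from mt-Atp8, the messengers with fewer than 100 CPM were those whose sequence recurs almost whole in other annotated genes. The share of 50-base words that also occur in transcripts of other genes in the GENCODE M21 annotation was 98.0% to 100% for mt-Co2, mt-Co3, mt-Atp6, mt-Nd4l and mt-Nd3, 62.2% for mt-Nd4, 51.1% for mt-Co1, 8.19% for mt-Nd2, 7.61% for mt-Nd5 and 0% for mt-Nd1, mt-Nd6, mt-Cytb and mt-Atp8. How reads matching several places were counted is not given in the sources used here. Counts of genes with a high share are therefore uncertain, and their levels cannot be set beside that of mt-Cytb. 2 pairs of stretches, from the GRCm38 transcripts of GENCODE M21, show the difference between a gene that can be told from its copy and one that cannot. In the first pair, mt-Nd5 (chrM:12642-12701, plus strand) and the pseudogene Gm4076 (chr13:85127260-85127319, minus strand), capitals mark the 9 bases that differ. In the second, mt-Co3 (chrM:8607-8666, plus strand) and Gm28437 (chr1:24613912-24613971, minus strand), no base differs.
mt-Nd5: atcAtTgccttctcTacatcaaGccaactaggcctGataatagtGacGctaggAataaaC
Gm4076: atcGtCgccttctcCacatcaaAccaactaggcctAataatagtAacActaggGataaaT
mt-Co3: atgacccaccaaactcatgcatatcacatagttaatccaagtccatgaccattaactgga
Gm28437: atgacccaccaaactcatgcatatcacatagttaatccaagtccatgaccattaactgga
Of the 784 bases of the mt-Co3 transcript, 783 aligned to Gm28437 with no difference, and of the 684 of mt-Co2, 681 aligned to Gm28661 with no difference. For mt-Nd5, 908 of 954 aligned bases were the same in Gm4076. Among members with under 20% of shared words, 5 mitochondrial genes were higher in KO at day 14 and 3 were lower at day 1.

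Among the nuclear members, the summed counts of complex IV differed most between KO and WT at both days, by ratios of 0.826 at day 14 and 1.40 at day 1, while those of complex II had ratios of 1.06 and 1.04. On TMM effective library sizes the ratios were 0.872 and 1.28 for complex IV and 1.12 and 0.946 for complex II. At day 14, 1 of 14 tested complex IV genes was higher and 4 lower in KO (median log2 fold change −0.22, and −0.10 without WT replicate 1), and at day 1 it was 9 higher and 1 lower (median 0.39). Their summed counts made up 0.0928% ± 0.0026 of all counts in KO and 0.112% ± 0.010 in WT at day 14, and 0.141% ± 0.009 in KO and 0.101% ± 0.004 in WT at day 1. Over all genes, 22.7% were higher and 23.7% lower at day 14, and 30.6% higher and 30.2% lower at day 1. In complex I, 2 of 36 were higher and 8 lower at day 14, and 19 of 37 were higher and 5 lower at day 1. Complex III had 1 higher and 2 lower of 8 at day 14, and 4 higher and 2 lower at day 1. Complex V was divided, with 5 higher and 3 lower of 16 at day 14 (median 0.07, which became −0.00 under scaling by library size alone) and 6 higher and 4 lower at day 1. Complex II had 1 higher of 4 at day 14, and 1 higher and 1 lower at day 1. The falls of complexes I, III and IV at day 14, and the calls of complex V at day 1, thus lay near the shares of all genes. Taken gene by gene, 15 nuclear members were called higher at day 1 and lower at day 14, and 6 were lower at day 1 and higher at day 14. Of the others, 1 was higher at both and none was lower at both (also 0 at an unadjusted p in edgeR, and in DESeq2 and limma-voom). How many of all genes had such crossed calls was not counted. The change of the KO effect from day 1 to day 14 was called higher for 29.5% and lower for 30.6% of all genes. Crossed calls are therefore not shown to be particular to these members.

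**Figure D4:**
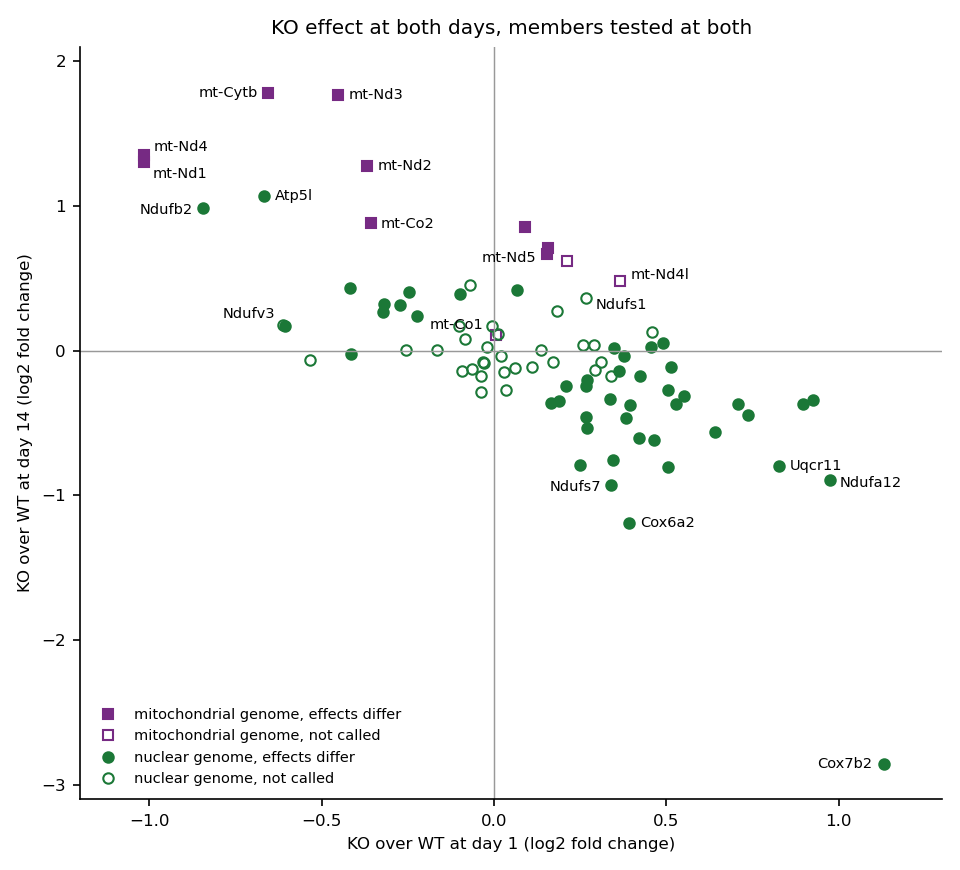
KO over WT log2 fold change at day 1 (horizontal axis) and at day 14 (vertical axis) of the 90 members tested at both days; each point is 1 gene, and filled points passed the test of a difference between the KO effects of the 2 days. Of 78 nuclear genes, 41 lie above 0 at day 1 and below 0 at day 14, and of 12 mitochondrial genes 6 lie below 0 at day 1 and above 0 at day 14 and the other 6 above 0 at both. The same count over all genes was not made.

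In complex I, the accessory subunit gene Ndufa12 had the largest rise of day 1 among members of mean log2 CPM 3 or more. It had 37.1, 31.2 and 38.7 CPM in KO and 73.5, 58.1 and 66.2 CPM in WT at day 14, and 71.1, 62.1 and 68.5 CPM in KO and 32.3, 28.9 and 42.2 CPM in WT at day 1. KO was low at day 14 and high at day 1, without overlap at either day (−0.90 ± 0.12, adjusted p = 0.000461, and 0.97 ± 0.12, adjusted p = 9.49e-06). Ndufs7, a core subunit that carries an iron-sulphur cluster near the ubiquinone site, had 38.0, 36.9 and 36.2 CPM in KO and 57.5, 72.2 and 79.8 CPM in WT at day 14, and 60.3, 67.4 and 61.0 CPM in KO and 48.6, 50.02 and 51.2 CPM in WT at day 1. It also went down in KO at day 14 and up at day 1 without overlap (−0.93 ± 0.13, adjusted p = 0.000461, and 0.34 ± 0.07, adjusted p = 0.000759). Ndufa7, an accessory subunit named after its values were seen, did likewise (−0.80 ± 0.09 and 0.51 ± 0.06, adjusted p = 0.000145 and 6.14e-06).

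Other complex I genes departed from that order. Ndufs1, the iron-sulphur core subunit of the NADH-oxidising arm, had 160, 135 and 143 CPM in KO and 128, 104 and 106 CPM in WT at day 14, and 122, 127 and 123 CPM in KO and 104, 103 and 104 CPM in WT at day 1. KO was above WT at both days (0.36 ± 0.11, adjusted p = 0.0248, and 0.27 ± 0.05, adjusted p = 0.000821), but the call at day 14 was lost without 1 of several libraries, with an adjusted p of up to 0.0976 without KO replicate 1. Ndufv3, an accessory subunit of the same arm, had 31.7, 39.8 and 38.2 CPM in KO and 54.5, 53.9 and 59.7 CPM in WT at day 1, a fall without overlap (−0.61 ± 0.09, adjusted p = 5.96e-05). At day 14 it had 35.9, 36.7 and 33.5 CPM in KO and 32.3, 34.2 and 27.0 CPM in WT (0.17 ± 0.12, adjusted p = 0.263). Ndufb2, an accessory subunit with fewer than 7 CPM, was higher at day 14 and lower at day 1 (0.99 ± 0.32 and −0.84 ± 0.30, adjusted p = 0.0299 and 0.0286) and was named after its values were seen. The calls of Ndufb2 were lost at day 14 without any 1 of the KO libraries and at day 1 without any 1 of the WT libraries or KO replicate 1.

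By role, 7 tested core subunits of complex I, which carry the redox centres, held 1 higher and 1 lower gene at day 14 and 4 higher and none lower at day 1 (0 at an unadjusted p in edgeR, and in DESeq2 and limma-voom). Accessory subunits held 1 higher and 7 lower of 29 at day 14, and 15 higher and 5 lower of 30 at day 1. By its name Ndufa4 was counted among them, as was Ndufa4l2 at day 1, which was not tested at day 14. At day 1 Ndufa4 was among the rises and Ndufa4l2 among the falls. The shares of all genes were 22.7% higher and 23.7% lower at day 14, and 30.6% and 30.2% at day 1. The accessory falls of day 14 were thus near the share of all genes. Ndufa4 had 149, 149 and 157 CPM in KO and 110, 101 and 109 CPM in WT at day 1 (0.51 ± 0.06, adjusted p = 6.34e-06), and its groups overlapped at day 14 (−0.11 ± 0.13, adjusted p = 0.513). Its paralog Ndufa4l2, which is known as a target of hypoxia signalling, had 2, 4 and 7 counts in KO and 20, 17 and 18 in WT at day 1. It fell on these few reads (−1.61 ± 0.50, adjusted p = 0.0132, and 0.0653 in DESeq2).

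Complex II, or succinate dehydrogenase, also belongs to the citric acid cycle. Its flavoprotein gene Sdha had 235, 222 and 222 CPM in KO and 183, 179 and 178 CPM in WT at day 14, and 200, 188 and 184 CPM in KO and 236, 233 and 225 CPM in WT at day 1. KO was above WT at day 14 and below it at day 1, without overlap (0.32 ± 0.08, adjusted p = 0.00813, and −0.27 ± 0.06, adjusted p = 0.000865), the order of mt-Cytb. The membrane anchor gene Sdhd had 110, 114 and 119 CPM in KO and 98.8, 97.0 and 93.7 CPM in WT at day 1. It rose there without overlap (0.26 ± 0.06, adjusted p = 0.00179) and was not called at day 14 (0.04 ± 0.10, adjusted p = 0.752), and the difference between the days was not called (adjusted p = 0.142). Neither Sdhb, the iron-sulphur subunit, nor Sdhc, the other anchor, was called at either day. The range over all 12 libraries was 51.0 to 71.6 CPM for Sdhb and 83.1 to 95.7 CPM for Sdhc.

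In complex III, Uqcr11, its smallest subunit, had 24.8, 26.7 and 26.5 CPM in KO and 55.9, 41.8 and 36.7 CPM in WT at day 14, and 54.6, 60.4 and 57.5 CPM in KO and 36.4, 28.1 and 33.4 CPM in WT at day 1. KO was low at day 14 and high at day 1 without overlap (−0.80 ± 0.15, adjusted p = 0.00279, and 0.83 ± 0.09, adjusted p = 5.34e-06). Uqcrq, another small subunit, had 120, 143 and 138 CPM in KO and 75.9, 64.0 and 76.6 CPM in WT at day 1 (0.90 ± 0.08, adjusted p = 1.02e-06). At day 14 its 3 KO libraries lay at 72.0 to 74.7 CPM and WT replicate 1 at 125 CPM, with the other WT replicates at 78.8 and 75.9 CPM (−0.37 ± 0.18, adjusted p = 0.12). Uqcrh, the hinge protein that holds cytochrome c1, had 109, 97.4 and 97.6 CPM in KO and 79.1, 85.6 and 86.0 CPM in WT at day 14, and 94.4, 83.7 and 112 CPM in KO and 129, 116 and 120 CPM in WT at day 1. It went against the other small subunits (0.27 ± 0.09, adjusted p = 0.0374, and −0.32 ± 0.09, adjusted p = 0.00693), and its call at day 14 did not hold in DESeq2 (adjusted p = 0.0519). Uqcrc1, a core protein of the matrix side, had 106, 114 and 94.9 CPM in KO and 137, 139 and 146 CPM in WT at day 1 (−0.42 ± 0.07, adjusted p = 0.00018). At day 14 it overlapped between the groups (−0.02 ± 0.08, adjusted p = 0.855).

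In complex IV, the structural subunit gene Cox5b had 98.2, 97.4 and 95.7 CPM in KO and 151, 112 and 103 CPM in WT at day 14, and 149, 147 and 166 CPM in KO and 88.7, 79.0 and 77.6 CPM in WT at day 1. The day 1 rise was among the clearest of the nuclear members (0.93 ± 0.07, adjusted p = 1.43e-07), and the day 14 difference, though without overlap, was not called (−0.34 ± 0.14, adjusted p = 0.0701), while it passed in the 12-library fit (adjusted p = 0.0273). Cox7b2, an isoform of Cox7b known from the human testis, had 1.03, 0.564 and 1.08 CPM in KO and 8.54, 4.67 and 6.38 CPM in WT at day 14, and 5.21, 8.56 and 7.99 CPM in KO and 3.35, 3.61 and 3.01 CPM in WT at day 1. This gene, named after its values were seen, had the largest fold change of all members at day 14 (−2.86 ± 0.34, adjusted p = 0.000183) and went the other way at day 1 (1.13 ± 0.20, adjusted p = 0.00033). Cox7b itself had 119, 113 and 112 CPM in KO and 110, 93.5 and 84.8 CPM in WT at day 14, and 103, 101 and 110 CPM in KO and 131, 116 and 122 CPM in WT at day 1. It was lower at day 1 (−0.22 ± 0.06, adjusted p = 0.008, and 0.181 under library size alone) and not called at day 14 (0.24 ± 0.11, adjusted p = 0.0957). Cox7c, a small structural subunit, had 12.9, 11.1 and 12.1 CPM in KO and 9.89, 7.60 and 8.55 CPM in WT at day 14 (0.46 ± 0.16, adjusted p = 0.0421). That call did not hold in DESeq2 (adjusted p = 0.059).

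Several complex IV subunits have isoforms that are known to be set apart by tissue. The widely expressed isoforms Cox6a1, Cox6b1, Cox7a2 and Cox8a were each called higher in KO at day 1, and Cox4i1 was not called at either day. Cox6a1 had 83.3, 101 and 85.1 CPM in KO and 146, 115 and 148 CPM in WT at day 14, and 163, 171 and 181 CPM in KO and 128, 120 and 128 CPM in WT at day 1 (−0.62 ± 0.12, adjusted p = 0.00334, and 0.47 ± 0.06, adjusted p = 1.72e-05). Its KO and WT libraries did not overlap at either day. Cox7a2l, which takes part in joining complexes III and IV into supercomplexes, followed the same order (−0.37 ± 0.11, adjusted p = 0.0198, and 0.40 ± 0.10, adjusted p = 0.00288), with an adjusted p of up to 0.0749 at day 14 when 1 library was left out. The day 1 log2 fold changes of Cox6b1, Cox7a2 and Cox8a were 0.42, 0.38 and 0.35. The isoforms of heart and skeletal muscle were low. Cox6a2 had 1.76, 3.67 and 1.40 CPM in KO and 7.80, 4.18 and 3.21 CPM in WT at day 14, where the groups overlapped (−1.19 ± 0.44, adjusted p = 0.0512). It passed under 8 alternatives, with an adjusted p of 0.0303 in DESeq2 and 0.016 in the 12-library fit. Cox7a1 lay at 0.243 to 1.62 CPM over the 12 libraries and was not called, and Cox8b had 15 counts in WT replicate 1 of day 14 and 0 in the other 5 libraries of that day's table. The lung isoform Cox4i2 and the testis isoform Cox6b2 had at most 7 and 4 counts in any library, and these, like Cox8b, were too low to test.

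In complex V, genes of the same part of the enzyme moved apart. The catalytic head is made of the alpha and beta subunits. Atp5a1, the alpha subunit gene, had 707, 707 and 692 CPM in KO and 557, 485 and 546 CPM in WT at day 14, and 513, 514 and 460 CPM in KO and 524, 536 and 543 CPM in WT at day 1. It rose at day 14 without overlap (0.39 ± 0.08, adjusted p = 0.00452) and was not called at day 1 (−0.10 ± 0.06, adjusted p = 0.152), and it was named after its values were seen. Atp5b, the beta subunit gene and the nuclear member with the most reads, had 1343, 1296 and 1272 CPM in KO and 1727, 1433 and 1444 CPM in WT at day 14 (−0.25 ± 0.10, adjusted p = 0.0614), and 1668, 1743 and 1589 CPM in KO and 1372, 1404 and 1405 CPM in WT at day 1 (0.27 ± 0.05, adjusted p = 0.00076). Alpha was thus high in KO at day 14 and beta in KO at day 1.

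The stalk and membrane subunits of complex V were likewise divided. Atp5o, the subunit that joins head and stalk, had 78.7, 71.8 and 71.9 CPM in KO and 67.6, 45.2 and 50.1 CPM in WT at day 14, and 62.9, 68.7 and 65.6 CPM in KO and 88.5, 89.2 and 87.4 CPM in WT at day 1. KO was above WT at day 14 and below it at day 1, without overlap (0.44 ± 0.15, adjusted p = 0.0354, and −0.42 ± 0.06, adjusted p = 5.14e-05). The first of these calls was lost under library size alone (adjusted p = 0.067). Atp5l, subunit g, had 7.60, 7.76 and 7.33 CPM in KO and 3.60, 3.56 and 3.56 CPM in WT at day 14, and 4.10, 3.89 and 5.26 CPM in KO and 7.16, 6.96 and 7.13 CPM in WT at day 1. It was high in KO at day 14 and in WT at day 1 (1.07 ± 0.17, adjusted p = 0.00109, and −0.67 ± 0.16, adjusted p = 0.00304), was named after its values were seen, and shares 84.8% of its 50-base words with other transcripts, so its counts are uncertain. Atp5k, subunit e, which sits beside subunit g in the membrane, had 25.3, 23.9 and 30.3 CPM in KO and 20.5, 14.5 and 16.5 CPM in WT at day 1 (0.64 ± 0.13, adjusted p = 0.000963), and was not called at day 14 (−0.56 ± 0.21, adjusted p = 0.052), although it passed under 9 alternatives (adjusted p = 0.0411 in DESeq2 and 0.0245 in the 12-library fit). Atp5s, coupling factor B, had 7.05, 5.78 and 7.27 CPM in KO and 7.65, 14.3 and 12.8 CPM in WT at day 14 (−0.79 ± 0.24, adjusted p = 0.0261), a call lost in limma-voom (adjusted p = 0.053).

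The c ring that turns with proton flow is built from 1 protein encoded by Atp5g1, Atp5g2 and Atp5g3. Atp5g3 had 158, 175 and 165 CPM in KO and 142, 112 and 115 CPM in WT at day 14 (0.42 ± 0.11, adjusted p = 0.011), and 124, 131 and 126 CPM in KO and 129, 116 and 120 CPM in WT at day 1 (0.07 ± 0.06, adjusted p = 0.345). KO was above WT without overlap at day 14 and overlapped with it at day 1. Atp5g2 had 13.7, 12.9 and 14.4 CPM in KO and 16.6, 18.6 and 16.3 CPM in WT at day 1 (−0.32 ± 0.10, adjusted p = 0.0173, and 0.112 under library size alone). Atp5g1 was not called at either day (adjusted p = 0.184 and 0.0619).

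**Figure D5:**
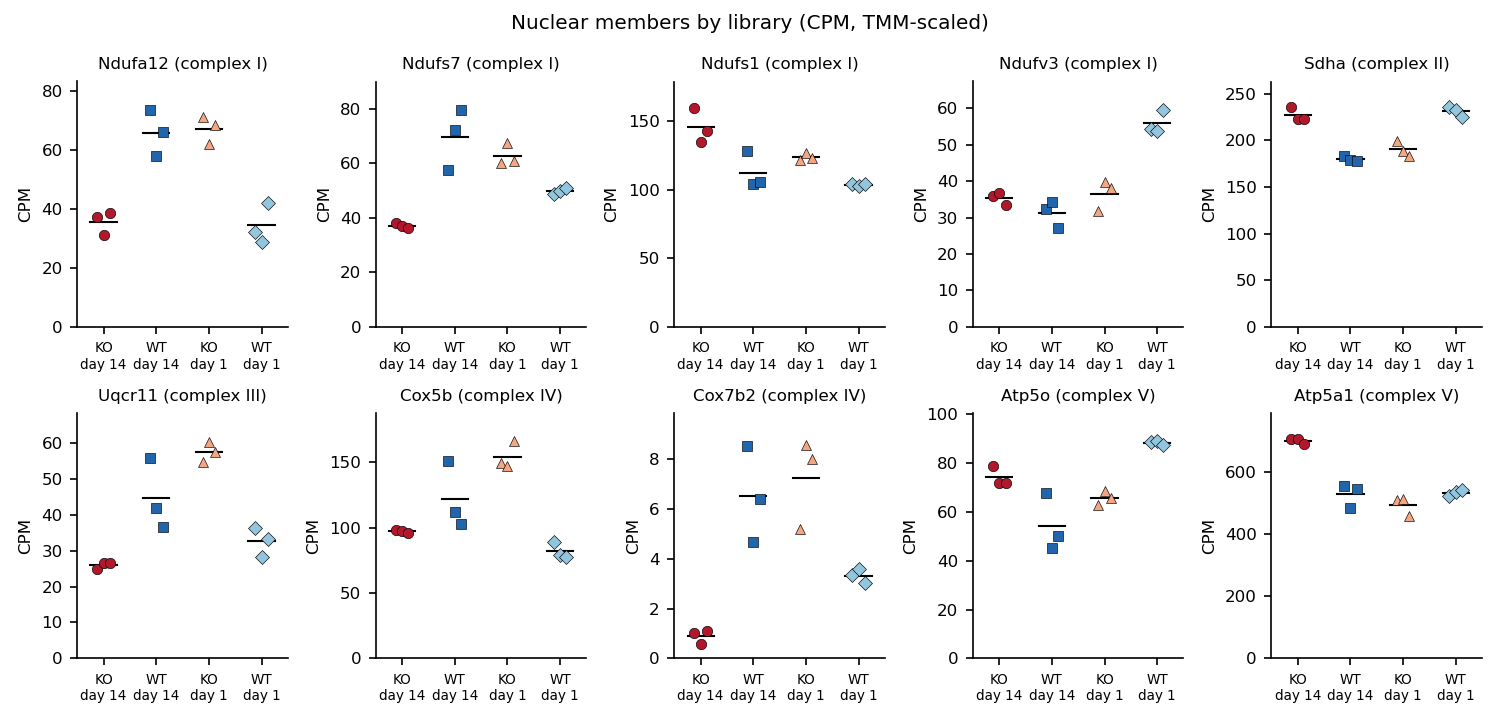
CPM (vertical axes, from 0) of 10 nuclear members in the libraries of the 4 groups (horizontal axes); points are libraries and bars are group means. Ndufa12, Ndufs7, Uqcr11, Cox5b and Cox7b2 are higher in WT than in KO at day 14 and higher in KO at day 1, whereas Sdha and Atp5o are in the reverse order.

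The promoters of genes from both orders are shown because nuclear subunits are each read from a start of their own. Each is 300 bases, 250 before and 50 after the start, from RefSeq on GRCm38.p6, and capitals mark a match to one of the motifs searched. Ndufa12 (chr10:94198785-94199084, plus strand) and Uqcr11 (chr10:80406772-80407071, minus strand) were called higher at day 1 and lower at day 14. Atp5o (chr16:91931581-91931880, minus strand) was called lower at day 1 and higher at day 14, and Ndufv3 (chr17:31519865-31520164, plus strand) was called lower at day 1. The capitals in Uqcr11 are an ETS site and those in Atp5o an NRF1 site on the minus strand.
Ndufa12: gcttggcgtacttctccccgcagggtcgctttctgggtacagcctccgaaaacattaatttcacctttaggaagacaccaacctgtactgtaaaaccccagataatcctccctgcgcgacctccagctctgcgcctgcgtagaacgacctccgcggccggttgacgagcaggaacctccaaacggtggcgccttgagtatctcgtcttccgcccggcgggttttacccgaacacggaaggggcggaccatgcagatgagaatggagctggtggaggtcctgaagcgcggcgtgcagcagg
Uqcr11: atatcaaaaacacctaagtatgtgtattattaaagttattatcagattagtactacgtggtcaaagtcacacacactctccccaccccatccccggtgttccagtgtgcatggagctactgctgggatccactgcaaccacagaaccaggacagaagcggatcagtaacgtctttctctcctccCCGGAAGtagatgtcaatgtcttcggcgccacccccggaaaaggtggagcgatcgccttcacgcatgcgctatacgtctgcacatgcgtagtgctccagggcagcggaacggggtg
Atp5o: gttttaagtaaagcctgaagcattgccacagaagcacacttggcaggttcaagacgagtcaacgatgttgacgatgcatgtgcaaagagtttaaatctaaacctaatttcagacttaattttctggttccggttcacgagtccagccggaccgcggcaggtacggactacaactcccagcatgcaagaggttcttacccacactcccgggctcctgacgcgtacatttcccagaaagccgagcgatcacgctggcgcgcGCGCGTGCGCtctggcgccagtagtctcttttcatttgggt
Ndufv3: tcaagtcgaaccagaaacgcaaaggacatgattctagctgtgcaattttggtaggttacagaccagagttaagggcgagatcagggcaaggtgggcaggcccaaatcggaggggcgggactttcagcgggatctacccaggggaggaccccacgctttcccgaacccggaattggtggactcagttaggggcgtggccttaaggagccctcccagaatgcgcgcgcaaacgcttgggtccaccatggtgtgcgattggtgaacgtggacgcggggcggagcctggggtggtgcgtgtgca
Of the 82 nuclear members, 68 matched an entry of the promoter table. On either strand, the site of the factor NRF1 (the letters in capitals in Atp5o, with any base at the fifth of them) occurred in 17 of the 68, against 5.19% of 27025 genes. CCGGAAG, the ETS site bound by GABP, occurred in 16 (23.5%, against 9.93%), and AAGATGGCG, the core of the YY1 site, in 7 (10.3%, against 1.64%). A longer form of the YY1 site, which was searched first and of which the core is a shortening made after its result was seen, occurred in 4 (5.88%, against 0.755%). TCAAGGTCA, the site of the ERR receptors, occurred in 2 (2.94%, against 0.466%). AAAGGTCA, the site that NR4A receptors bind as monomers, was in none of the 68 windows and in 1.70% of all genes, and it overlaps the ERR site in 7 letters. These are matches of letters in a window and not binding. Of 17 members with the NRF1 letters, 3 were higher and 2 lower in KO at day 14, and 6 higher and 5 lower at day 1. Of the 49 tested members without them, 5 were higher and 15 lower at day 14, and 28 higher and 7 lower at day 1. Over all genes, 22.7% were higher and 23.7% lower at day 14, and 30.6% higher and 30.2% lower at day 1. The difference between members with and without the letters was not tested.

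Within a genotype, the comparison of day 14 with day 1 cannot be told apart from a difference between the 2 tables. In KO, 9 nuclear members were higher at day 14 and 44 lower (26.9% and 27.9% of all genes), with a median log2 change of −0.35, and 5 mitochondrial messengers were higher and 1 lower. In WT, 15 nuclear members were higher and 16 lower (25.8% and 26.1% of all genes), and no mitochondrial messenger was higher (0 at an unadjusted p in edgeR, and in DESeq2 and limma-voom) while 9 were lower (median −0.53). The 15 nuclear rises in WT were 9 without WT replicate 2 of day 1, and the 16 falls were 10 without WT replicate 3 of day 1. The single mitochondrial fall in KO, mt-Atp8, was not called without KO replicate 3 of day 14. For mt-Cytb the log2 change was 0.87 ± 0.15 in KO and −1.59 ± 0.15 in WT (adjusted p = 0.000153 and 5.16e-07). For Ndufa12 it was −0.91 ± 0.13 in KO and 0.94 ± 0.13 in WT (adjusted p = 4e-05 and 3.2e-05). The genotypes thus went opposite ways in both genes between the days. The difference between the KO effects of the 2 days, in which a shift common to a table cancels, was higher for 12 and lower for 35 nuclear members, and higher for 9 and lower for 1 of the mitochondrial ones (29.5% and 30.6% of all genes). The 1 lower gene was mt-Atp8, whose call was lost without KO replicate 2 or 3 of day 14, WT replicate 1 of day 14 or WT replicate 2 of day 1.

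The close groups, KO at day 1 and WT at day 14, still differed in these genes. This contrast was added after the data were seen. Of the nuclear members, 13 were higher in KO at day 1 and 1 was lower, and 9 mitochondrial messengers were higher and none lower (0 at an unadjusted p in edgeR, and in DESeq2 and limma-voom), against 3.89% of all genes higher and 5.89% lower. The median log2 difference was 0.20 for nuclear and 0.54 for mitochondrial members, and 64 of 79 nuclear members lay above 0. mt-Cytb was higher by 0.93 ± 0.15 (adjusted p = 0.00163) and Cox6a2 by 1.27 ± 0.33 (adjusted p = 0.0269). Uqcrc1 was the nuclear member that was lower (−0.30 ± 0.08, adjusted p = 0.0302). The nuclear count of 13 was 44 without WT replicate 1 of day 14, 3 without WT replicate 2 of day 14 or KO replicate 3 of day 1, 4 without WT replicate 3 of day 14 or KO replicate 1 of day 1, 7 without KO replicate 3 of day 14, and 8 without any 1 of the WT replicates of day 1. The mitochondrial count of 9 was 5 without WT replicate 2 of day 14 and 4 without KO replicate 3 of day 1, and the single fall was lost without 6 of the libraries.

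Other genes of the mitochondrion were read from lists of their own. Over all genes tested, 22.7% were higher and 23.7% lower in KO at day 14, and 30.6% higher and 30.2% lower at day 1. These shares also apply to the regulators and cell type markers described below. Assembly factors of the complexes had 2 higher and 9 lower of 47 in KO at day 14, and 21 higher and 4 lower at day 1. Mitochondrial ribosomal proteins, which make the machinery that translates the 13 messengers, had 5 higher and 18 lower of 77 at day 14, and 44 higher and 5 lower at day 1 (medians −0.18 and 0.29). Genes of mitochondrial DNA upkeep, transcription and RNA handling had 1 higher and 8 lower of 31 at day 14, and 20 higher and none lower at day 1 (1 lower at an unadjusted p below 0.05 in edgeR, and 0 called in DESeq2 and limma-voom). Citric acid cycle genes had 7 higher and 1 lower of 19 at day 14, and 4 higher and 7 lower at day 1, and import genes 3 higher and 5 lower of 22, and 16 higher and 3 lower. Genes of fusion, fission and mitophagy had 5 higher and 3 lower of 13 at day 14, and 2 higher and 6 lower at day 1. The share called lower at day 14 was thus near or below that of all genes in each of these lists.

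Single genes of those lists gave the range of log2 fold changes. Mrpl54, of the large mitochondrial ribosomal subunit, changed by −0.79 at day 14 and by 1.34 at day 1, and Mrps6, of the small subunit, by 0.98 and −0.77. Twnk, the helicase that unwinds mitochondrial DNA, changed by −0.67 and 0.51, and Tfb1m, which methylates mitochondrial ribosomal RNA, by 0.87 at day 1. Of 7 tested respiratory genes with names outside the rule, 1 was higher and 1 lower at day 14, and 3 were higher and 1 lower at day 1. Among them, Cycs, cytochrome c, rose at both days (1.40, adjusted p = 9.97e-05, at day 14, and 0.43 at day 1). Bnip3, a mitophagy receptor, rose by 1.26 at day 14 and fell at day 1 (−1.60), and Pcx, pyruvate carboxylase, rose by 1.85 at day 14. Cs, citrate synthase, fell at day 1 (−0.79).

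The regulators of mitochondrial biogenesis divided, with 2 higher and 3 lower of 12 at day 14, and 4 higher and 4 lower at day 1. Ppargc1a, the coactivator PGC-1α that is known to raise respiratory gene expression, had 0.79, 1.06 and 1.02 CPM in KO and 39.2, 39.4 and 42.4 CPM in WT at day 14, and 26.4, 28.2 and 27.9 CPM in KO and 9.55, 10.1 and 10.5 CPM in WT at day 1. It was low in KO at day 14 and high in KO at day 1, with no overlap (−5.40, adjusted p = 2.56e-07, and 1.46, adjusted p = 3.03e-08). Gabpa, another regulator of the list, had the reverse order without overlap (0.71, adjusted p = 0.000406, and −0.48, adjusted p = 3.77e-05). Its levels were 138, 131 and 125 CPM in KO and 87.4, 78.5 and 72.6 CPM in WT at day 14. At day 1 they were 103, 88.7 and 101 CPM in KO and 140, 133 and 138 CPM in WT. Tfam, which packs mitochondrial DNA and starts its transcription, rose at day 1 (0.46, adjusted p = 7.14e-05) and was not called at day 14 (0.09, adjusted p = 0.616). Esrra, an orphan receptor that works with PGC-1α, rose at day 1 (0.71, adjusted p = 8.59e-05), and Nrf1 fell there (−0.26, adjusted p = 0.00553). Neither was called at day 14 (−0.27 and −0.28, adjusted p = 0.0759 and 0.0712). Ppargc1b, the related coactivator, fell at day 1 (−0.54, adjusted p = 0.0209) and was not called at day 14 (0.12, adjusted p = 0.617).

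Markers of cell types moved with the groups as well. Smooth muscle markers summed to 3713 to 4195 CPM in KO and 2451 to 3338 CPM in WT at day 14. At day 1 they summed to 2548 to 2680 CPM in KO and 2102 to 2123 CPM in WT. Cald1 made 40.2% to 51.6% of this sum. Of 7 tested markers 3 were higher and 3 lower at day 14, and 5 higher and 1 lower at day 1. At day 14 Acta2 rose (1.29), while Synpo2 (−1.83) and Smtn (−0.75) fell. Fibroblast markers, of whose sum Ly6a made 65.0% to 85.9%, summed to 691 to 772 CPM in KO and 509 to 698 CPM in WT at day 14, and to 246 to 368 CPM in KO and 578 to 588 CPM in WT at day 1 (4 higher and 2 lower of 7, then 1 higher and 7 lower of 8). Lpl, lipoprotein lipase, made 92.9% to 97.1% of the summed markers of adipocytes, a cell type rich in mitochondria in its brown form. The sum came to 1036 to 1216 CPM in KO and 342 to 585 CPM in WT at day 14, and to 339 to 423 CPM in KO and 101 to 115 CPM in WT at day 1 (2 higher and 1 lower of 3, then 3 higher of 4). Of the 10 adipocyte markers, 7 stayed under 1 CPM in every library, Adipoq and Plin1 among them, and Ucp1 was at 0. Striated muscle markers summed to 34.1 to 44.0 CPM in KO and 93.7 to 165 CPM in WT at day 14, and to 83.7 to 107 CPM in KO and 41.8 to 44.7 CPM in WT at day 1 (1 lower of 4, then 1 higher and 2 lower of 5). That order of the sum was the order of Ttn, the giant sarcomere protein titin, at 8.57 to 15.02 CPM in KO and 65.9 to 81.4 CPM in WT at day 14, and at 61.4 to 83.1 CPM in KO and 5.24 to 6.18 CPM in WT at day 1. Tnnt2, cardiac troponin T, was lower in KO at day 1 (−0.77, adjusted p = 4.69e-05). Endothelial markers lay at 8.17 to 19.8 CPM, with Pecam1, Tie1 and Tek under 1 CPM throughout (3 lower of 4, then 2 higher and 1 lower of 3), and those of macrophages at 50.3 to 95.7 CPM, with Itgam at 0 (1 higher and 1 lower of 4, then 2 higher and 1 lower of 3). Their part in the differences of the respiratory chain was not tested.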

How the data were processed

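The authors deposited raw counts of reads for each gene name, with day 14 and day 1 in separate tables. The submitters' processing notes name the build mm9. Aligner, counting tool, annotation and strandedness were not given in the sources used here. Reads shared by similar or overlapping genes are therefore of uncertain origin. Column names give genotype and replicate (CTR was taken to mean WT), and the table gives the day. Repeated lines with identical counts were removed (53 at day 14, 43 at day 1).

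Tests used edgeR 4.0.16 under R 4.3.3, with filterByExpr, TMM scaling and the quasi-likelihood F statistic, and p-values were adjusted by Benjamini-Hochberg across all genes tested. KO and WT of a day were compared in a fit of its 6 libraries, and all other contrasts in 1 fit of 12 libraries over 26732 shared names. Standard errors are log2 fold changes divided by the root of F. CPM use the TMM scale of the 12-library fit. Each fit was tested on simulated counts. Of 1.5-fold changes put in, 36.5% were recovered at day 14, 65.7% at day 1 and 24.2% in the change of the KO effect. Few genes were changed in these simulations, at day 14 for example 63 of 14905 by 1.5-fold, 66 by 2-fold and 62 by 4-fold. In the data 22.7% of genes were called higher and 23.7% lower at that day. Adjustment across genes is stricter where few genes change, so these percentages are not the recovery in the data. In the simulations small changes were found less often at day 14 than at day 1, so counts of calls may differ in reach between the days. Shares of counts are printed as means over libraries, with no interval of counting error.

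The members and gene lists were chosen with earlier results of these data known. Named were all mitochondrial genes, complex II, isoform sets, the largest called rise and fall of complexes I, III, IV and V at each day and in the interaction (mean log2 CPM at least 3), the extremes of each list, and 5 regulators. Genes said to be named after their values were seen are outside that rule. Some genes that the rule takes from lists are not described. Shared words of 50 bases came from GENCODE M21 and promoters from RefSeq GRCm38.p6, whose build differs from that of the counts, so coordinates are those of the reference. Alternatives were other scalings, filters, DESeq2 1.42.0, limma-voom 3.58.1, the replicate number as a block, all libraries in 1 fit, members with under 20% shared words, and leaving out each library.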

Additional observations from a re-analysis of the deposited data

Results flagged for a closer look

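For 37 named members the KO effect differed between day 14 and day 1 by the interaction term of the 12-library edgeR fit, given here as the log2 fold change of day 14 minus that of day 1. Of all 92 members tested, 21 were higher and 36 lower in this contrast, against 29.5% and 30.6% of all genes. By genome, 12 of 79 nuclear members were higher and 35 lower, and 9 of 13 mitochondrial members were higher and 1 lower. The mitochondrial share called higher and the nuclear share called lower thus lay above the shares of all genes. The nuclear share called higher lay below. Some of the 37 were named for a large called value in this contrast, or after their values were seen. Among the mitochondrial messengers it was 2.46 for mt-Cytb, 2.39 for mt-Nd4, 2.34 for mt-Nd1, 2.24 for mt-Nd3, 1.67 for mt-Nd2, 1.26 for mt-Co2, 0.78 for mt-Co3, 0.57 for mt-Nd6, 0.54 for mt-Nd5 and −2.26 for mt-Atp8. In complex I it was −1.85 for Ndufa12, −1.29 for Ndufa7, −1.25 for Ndufs7 and −0.61 for Ndufa4, and 1.85 for Ndufb2 and 0.80 for Ndufv3. In complex II it was 0.61 for Sdha. In complex III it was −1.60 for Uqcr11 and −1.24 for Uqcrq, and 0.61 for Uqcrh and 0.41 for Uqcrc1.

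In complex IV the difference was −3.97 for Cox7b2, −1.58 for Cox6a2, −1.25 for Cox5b, −1.06 for Cox6a1, −0.75 for Cox7a2l, −0.58 for Cox6b1, −0.39 for Cox7a2 and −0.31 for Cox8a, and 0.49 for Cox7b. In complex V it was −1.18 for Atp5k and −1.01 for Atp5s, and 1.76 for Atp5l, 0.87 for Atp5o, 0.66 for Atp5g2, 0.51 for Atp5a1 and 0.37 for Atp5g3. Under scaling by library size alone the difference was no longer called for mt-Nd6 (0.37, adjusted p = 0.0587), Cox7b (0.28, adjusted p = 0.0758), Uqcrc1 (0.20, adjusted p = 0.144) and Atp5g3 (0.16, adjusted p = 0.291). That of Atp5g3 was also lost without KO replicate 2 or WT replicate 2 or 3 of day 14, or without KO replicate 1 or WT replicate 1 of day 1. That of Cox8a was lost with no filter, and without KO replicate 3 of day 14 or WT replicate 2 or 3 of day 1. That of mt-Atp8 was lost without KO replicate 2 or 3 or WT replicate 1 of day 14, or WT replicate 2 of day 1. Day and table cannot be told apart, although these values are free of any shift shared by a whole table.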

How the results depend on the processing

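No named gene changed direction with a call under any alternative (0 reversed, 230 weaker, 90 stronger and 5026 the same, over genes, contrasts and settings). Library size alone shifted the median of all genes by 0.12 at day 1, by −0.21 in the change of the KO effect and by 0.13 between the days in WT. Under it the nuclear members higher at day 14 numbered 6, those lower at day 1 numbered 7, the mitochondrial members higher at day 1 numbered 3, and the nuclear members lower at day 14 than at day 1 in WT numbered 6. It turned the median of complex II from 0.03 to −0.03 at day 14 and from −0.03 to 0.10 at day 1. With no filter, 2 mitochondrial members were higher at day 1, and 0 nuclear members were lower in KO at day 1 than in WT at day 14, against 2 in DESeq2. Members with under 20% shared words, fewer by construction, gave 5 mitochondrial genes higher at day 14, 3 lower at day 1, 5 with a higher KO effect at day 14 than at day 1, 3 higher at day 14 in KO, 5 lower at day 14 in WT, and 5 higher in KO at day 1 than in WT at day 14. On TMM effective library sizes the KO over WT ratio of summed counts was 1.51 for the mitochondrial and 0.946 for the nuclear members at day 14, and 0.862 and 1.13 at day 1. Except where stated, the cause was not tested.

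Leaving out each library gave 4 to 15 nuclear members higher and 10 to 21 lower at day 14, and 33 to 42 higher and 9 to 14 lower at day 1. For mitochondrial members it gave 9 to 10 higher and 0 to 0 lower at day 14, and 1 to 3 higher and 4 to 5 lower at day 1. For the KO effect of day 14 minus that of day 1, the same gave 11 to 15 nuclear members higher and 31 to 39 lower, and 9 to 10 mitochondrial members higher and 0 to 1 lower. Day 14 against day 1 in KO gave 6 to 13 and 39 to 47 nuclear and 4 to 7 and 0 to 1 mitochondrial members higher and lower, and in WT 9 to 19 and 10 to 24 nuclear and 0 to 0 and 7 to 10 mitochondrial ones. KO at day 1 against WT at day 14 gave 3 to 44 and 0 to 2 nuclear, and 4 to 10 and 0 to 0 mitochondrial ones. The ratio of summed counts ran from 1.40 to 1.46 (mitochondrial) and 0.875 to 0.940 (nuclear) at day 14, and from 0.883 to 1.00 and 1.23 to 1.26 at day 1. Same-numbered KO and WT libraries did not deviate together (correlations −0.023 to 0.051 at day 14 and −0.011 to −0.0031 at day 1). No pairing by number was thus seen, which does not exclude that the libraries were paired. With the replicate number as a block, 8 nuclear members were higher and 19 lower at day 14, and 39 and 13 at day 1, with 10 mitochondrial members higher at day 14. Depth limits mt-Nd3, mt-Nd4l, mt-Atp8, Ndufa4l2, Cox4i2, Cox6b2, Cox7a1 and Cox8b, which have few reads.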
